A study of Mus musculus with 12 samples.

Results

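The genes described here are 10 apolipoproteins, lipid transporters, lipoprotein enzymes and lipoprotein receptors (Apoe, Apod, Apoc1, Clu, Lpl, Lcat, Abca1, Abcg1, Lrp1 and Vldlr), chosen by symbol from the 54532 genes of an RNA-seq table of cultured mouse astrocytes. All 10 symbols were found, each in 1 row. The 12 libraries form 6 groups of 2, in 3 experiments, and every group is labelled C57BL/6, cortex and hippocampus, astrocyte. In the first experiment, cells labelled as a conditional knockout of Ogt (Ogt cKO) were set against their control (cKO control) at 4 months of age. Ogt encodes the enzyme that attaches O-linked N-acetylglucosamine to intracellular proteins. Both groups carry the same genotype label, Glast-CreERT2::Ogtfloxp/Y, a floxed Ogt allele with an inducible Cre recombinase driven from the promoter of the astrocyte glutamate transporter Glast, and only the sample descriptions tell them apart. No tamoxifen is described. In the second, an amyloid mouse labelled 5X APP Alzheimer's mice model (AD model) was set against wild type (AD control), at 6 months in the sample labels and 5 months in the series text. In the third, wild-type cells from mice of 2 months were left untreated (Aβ control) or given amyloid-beta peptide 1-42 at 20 μM for 72 hours (Aβ treated); the characteristics of 1 treated sample say 73 hours. The labels do not say whether the 2 libraries of a group came from separate mice or cultures, so the spread between them may be technical. The p-values rest on a spread estimated for each gene from all 12 libraries together. For a gene, the SE is therefore the same in all 3 experiments and is not the spread of the 2 groups compared.

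Apolipoproteins are the protein part of lipoprotein particles. In the brain, astrocytes are a main source of apolipoprotein E, which is loaded with cholesterol and phospholipid by the membrane transporters ABCA1 and ABCG1, remodelled by the enzyme LCAT, and taken up by cells through receptors of the low-density lipoprotein receptor family such as LRP1 and VLDLR. Transcription of Abca1, Abcg1, Apoe and Lpl is known to be driven by the sterol-sensing liver X receptors (LXR), which pair with retinoid X receptors, while the SREBP factors drive cholesterol synthesis when sterol is low.

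Levels are given in FPKM, a fragment count corrected for the length of the gene and the size of the library, so they can be compared between genes. The libraries held 16418852 to 18705309 reads on genes, and 3 reads on a gene of 1 kb equalled 0.145 to 0.191 FPKM. Tests were run with limma on log2(FPKM + 1) over the 14014 genes that reached 1 FPKM in 2 or more libraries, with Benjamini-Hochberg adjustment, and a gene is said to have risen or fallen where the adjusted p was below 0.05. Of the 10 genes, 9 passed that filter and Apoc1 did not. The 2 libraries of a group correlated across genes at r = 0.985 to 0.991 in the cKO and Aβ experiments. They did so less closely in the AD experiment, at 0.948 for the control libraries and 0.944 for those of the model. The AD experiment is thus the least precise, which the shared SE does not show. Ogt itself was at 20.8 and 24.7 FPKM in the cKO control and at 11.0 and 12 in the Ogt cKO, a log2 change of -0.92 ± 0.30 (SE, adjusted p = 0.038, limma) that missed the threshold when any 1 of the 4 libraries was left out (adjusted p 0.085 to 0.17), and with no filter (0.088). Some libraries with no Ogt deletion in their labels were about as low. Ogt was at 7.85 and 10.4 FPKM in the Aβ control and 12.4 and 10.6 after the peptide. The AD control was at 10 and 22.7, and the AD model was higher than the Ogt cKO, at 18.3 and 19.9. The Aβ control differed from the cKO control by -1.23 ± 0.30 (adjusted p = 0.012, limma), so the level of Ogt does not by itself tell the Ogt cKO libraries from those of other groups. The cultures were not pure astrocytes by their RNA. Gfap, the astrocyte filament gene, was at 29.1 to 298 FPKM, Lyz2 of macrophages at 522 to 5762, Acta2 of smooth muscle at 171 to 3600, and Tubb3, the most abundant of 10 neuronal markers, at 40.6 to 177. The neuronal genes Snap25, Syt1, Rbfox3, Gad1 and Slc17a7 were under 1 FPKM in every library, and the other 5 of that list passed the filter. The astrocyte marker Gjb6 was also under 1 FPKM in all 12.

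Because Abca1, Abcg1, Apoe and Lpl are known LXR targets, the sequences upstream of the start sites were read for the motif bound by LXR with its partner, a direct repeat of AGGTCA spaced by 4 bases. RefSeq promoters on GRCm38.p6 were at hand for 6 of the 10 genes (Apoe, Apod, Abca1, Lcat, Lrp1 and Vldlr; 9 start sites in all). The 250 bases before the start are shown for Abca1, the gene with a match, and for Apoe and Apod, the apolipoproteins that changed most between groups. All 3 lie on the minus strand and are written in the direction of the gene. The Abca1 window is chr4:53159896-53160145, that of Apoe chr7:19699189-19699438 and that of Apod chr16:31314809-31315058. Capitals mark the match.
Abca1: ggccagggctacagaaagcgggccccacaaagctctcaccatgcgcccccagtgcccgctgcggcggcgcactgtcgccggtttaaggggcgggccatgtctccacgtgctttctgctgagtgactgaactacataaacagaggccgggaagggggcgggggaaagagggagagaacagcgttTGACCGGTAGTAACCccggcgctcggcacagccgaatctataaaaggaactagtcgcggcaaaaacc
Apoe: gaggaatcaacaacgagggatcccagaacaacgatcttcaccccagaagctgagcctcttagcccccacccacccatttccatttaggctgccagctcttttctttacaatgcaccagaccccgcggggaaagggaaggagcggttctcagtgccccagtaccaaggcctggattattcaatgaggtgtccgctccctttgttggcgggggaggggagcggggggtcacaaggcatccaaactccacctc
Apod: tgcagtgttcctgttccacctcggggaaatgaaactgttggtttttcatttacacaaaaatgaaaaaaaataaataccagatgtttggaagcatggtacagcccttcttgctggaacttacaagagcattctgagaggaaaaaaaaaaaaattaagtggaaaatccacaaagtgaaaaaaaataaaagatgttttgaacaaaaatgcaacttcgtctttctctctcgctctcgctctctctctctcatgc
The exact repeat was in none of the 9 windows, and it is in 5 of 32851 mouse promoter windows of this length (0.0152%), searched on both strands. A looser form, 2 copies of GGTNA with 5 bases between them, of which the exact repeat is a special case, was in the Abca1 window only. It lies 67 to 53 bases before the start, on the strand opposite to the gene, and 204 of the 32851 windows hold such a match (0.621%). The sterol response element TCACNCCAC, the motif of the SREBP factors, was in none of the 9 windows and is in 346 of the 32851 (1.05%). A match is a description of the letters and not a bound site, and these windows do not cover distant enhancers.

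Apoe (ENSMUSG00000002985, chr7:19696109-19699188 on mm10) encodes apolipoprotein E, the main lipid carrier of the brain. It was at 4719 and 4278 FPKM in the cKO control and at 468 and 421 in the Ogt cKO. In the AD experiment it was at 752 and 1646 in the control and 485 and 669 in the model. In the Aβ experiment it was at 464 and 693 in the control and 397 and 595 after the peptide. The 2 cKO controls stand far above the other 10 libraries, where the highest value is the 1646 of AD control replicate 2; in those 2 Apoe ranked 3 and 2 among protein-coding genes, and it ranked no lower than 104 in any library. Apoe fell in the Ogt cKO (log2 change -3.34 ± 0.38, 95% interval -4.20 to -2.47, adjusted p = 0.00106, limma), a 10.1-fold lower mean. Across the 14014 genes, 19.8% were called lower in that comparison and 22.6% higher. In bulk RNA, fewer cells of a type and less RNA per cell cannot be told apart. Apoe did not pass the test in the AD model (-0.97 ± 0.38, interval -1.83 to -0.10, adjusted p = 0.13, limma), although the 2 groups did not overlap. Without AD control replicate 1 the difference was -1.53 with an adjusted p of 0.019 by limma. After the Aβ peptide the groups overlapped, and the change was -0.22 ± 0.38 (interval -1.09 to 0.64, adjusted p = 0.68, limma).

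Apod (ENSMUSG00000022548, chr16:31296192-31314808) encodes apolipoprotein D, a lipocalin that carries small hydrophobic molecules. It was at 182 and 300.3 FPKM in the cKO control and at 8.07 and 8.73 in the Ogt cKO. The AD control had 25.1 and 72.7 and the AD model 149 and 276. It was at 11.2 and 7.42 in the Aβ control and at 117 and 62.0 after the peptide. The order of the groups was thus unlike that of Apoe: the cKO control and the AD model were high and overlapped, and the Ogt cKO and the Aβ control were low and overlapped. Apod fell in the Ogt cKO (log2 change -4.64 ± 0.52, adjusted p = 0.00099, limma), a 28.7-fold lower mean. It rose in the AD model (2.21 ± 0.52, adjusted p = 0.019, limma), a 4.34-fold higher mean, against a background of 9.8% of genes called higher and 7.27% lower. That rise missed the threshold without AD control replicate 1 (1.47, adjusted p = 0.082), without AD model replicate 2 (1.77, 0.088), when the 4 AD libraries were fitted alone (0.18) and with no filter on low values (0.055). It also rose after the peptide (3.09 ± 0.52, adjusted p = 0.0023, limma), a 9.64-fold higher mean, where 20.8% of genes were called higher and 15.1% lower.

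Clu (ENSMUSG00000022037, chr14:65968483-65981547) encodes clusterin, also called apolipoprotein J, a secreted chaperone. It was at 143 and 182 FPKM in the cKO control and 26.9 and 22.4 in the Ogt cKO. The AD control had 94.9 and 201 and the AD model 73.4 and 178, so that the spread within each AD group was larger than the distance between their means. It was at 31.7 and 30.9 in the Aβ control and 78.9 and 78.5 after the peptide, where the groups were well apart. Clu fell in the Ogt cKO (-2.67 ± 0.42, adjusted p = 0.0028, limma) and rose after the peptide (1.30 ± 0.42, adjusted p = 0.038, limma). The rise after the peptide missed the threshold when any 1 of its 4 libraries was left out. It also missed it with no filter (adjusted p = 0.090, limma) and after quantile normalization (0.053). It passed under the other 10 of 16 alternatives, and its size stayed between 1.29 and 1.39. The SE of 0.42 is shared with the AD libraries, whose values lay further apart. The AD model change was -0.27 ± 0.42 (interval -1.22 to 0.68, adjusted p = 0.73, limma).

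Apoc1 (ENSMUSG00000040564, chr7:19689481-19692660), the neighbour of Apoe that encodes a small apolipoprotein, was barely detected. It had 0 to 8 reads in a library, against 14375 to 190098 for Apoe. Its highest value was 0.608 FPKM, in AD model replicate 1, and it was listed at 0 in AD control replicate 2. With 3 reads worth 0.195 to 0.256 FPKM on this gene, differences between the groups were not detectable at this depth and no fold is given.

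**Figure D1:**
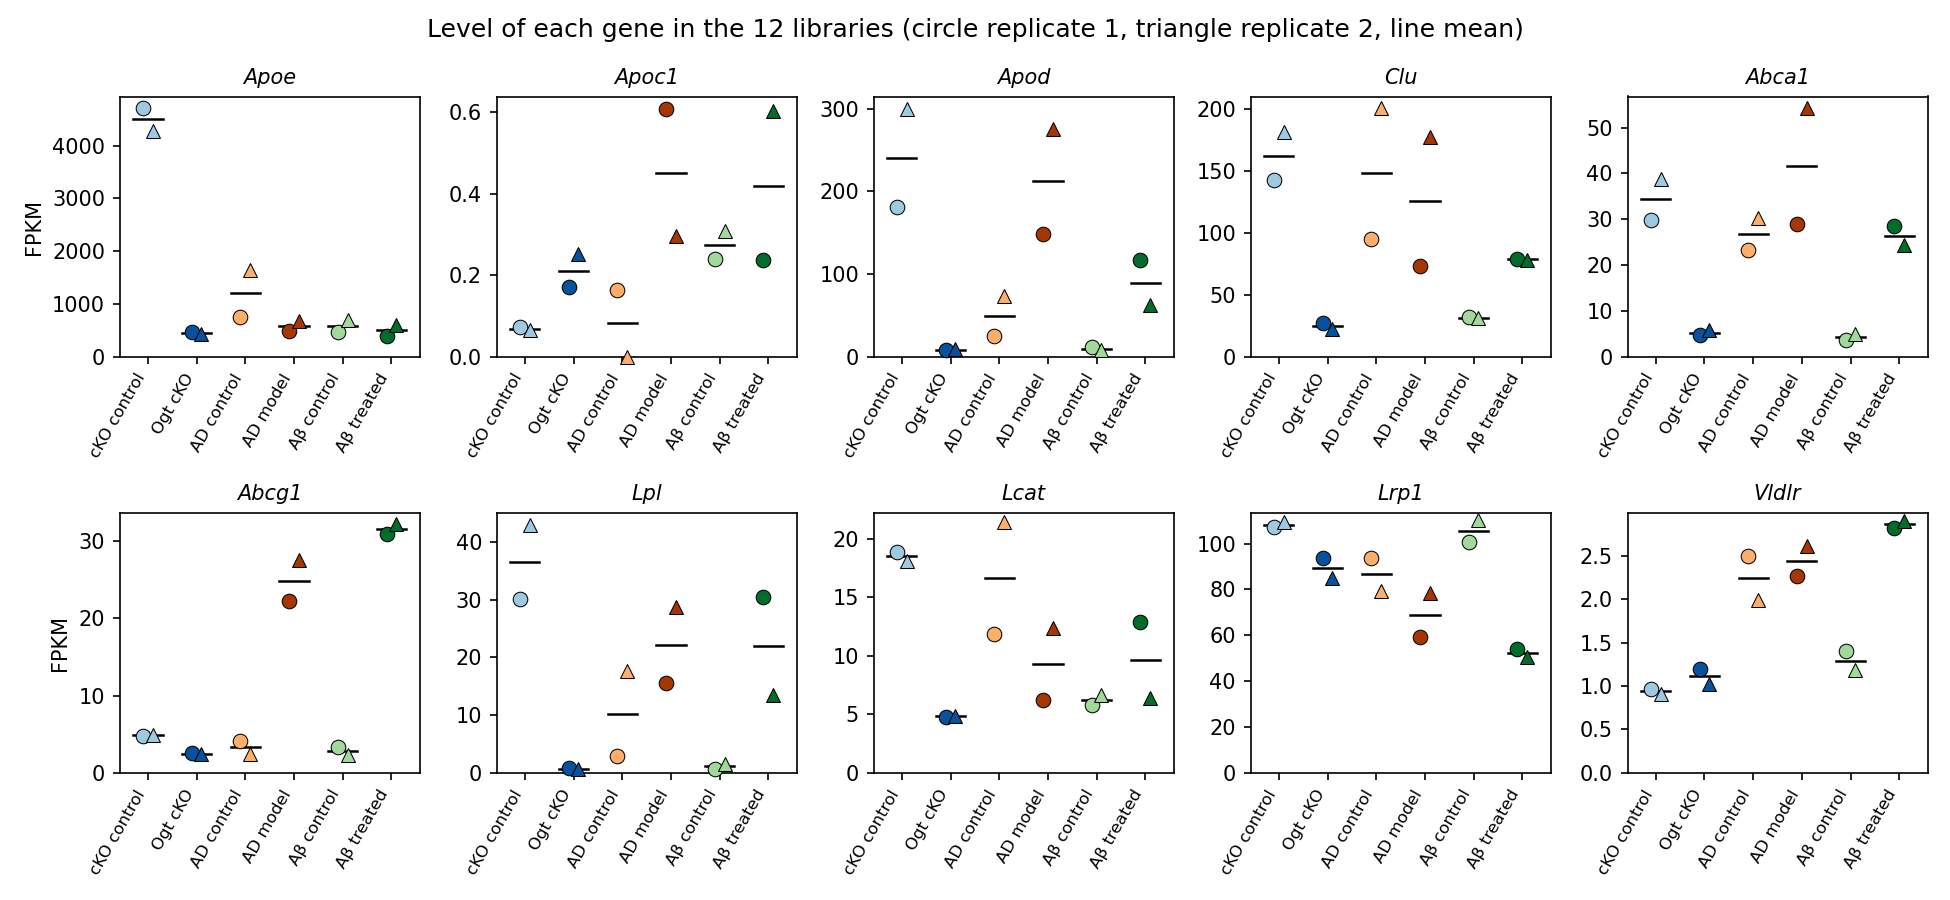
FPKM (vertical axes, linear, from 0) of the 10 genes in the 12 libraries, by group; circles are replicate 1, triangles replicate 2 and lines the group means. Apoe stands at 4719 and 4278 in the cKO control alone, whereas Apod, Clu, Abca1 and Lpl share low levels in the Ogt cKO and the Aβ control.

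Abca1 (ENSMUSG00000015243, chr4:53030787-53159895) encodes the transporter that hands cholesterol and phospholipid to lipid-poor apolipoproteins. It was at 29.7 and 38.8 FPKM in the cKO control and 4.74 and 5.73 in the Ogt cKO. Its AD control values, 23.3 and 30.2, overlapped those of the AD model, 29.0 and 54.2. It was at 3.65 and 4.97 in the Aβ control and 28.4 and 24.3 after the peptide. Abca1 fell in the Ogt cKO (-2.49 ± 0.28, adjusted p = 0.00105, limma), a 6.55-fold lower mean, and rose after the peptide (2.37 ± 0.28, adjusted p = 0.00042, limma), a 6.12-fold higher mean. The 2 peptide libraries lay within the range of the AD control and just below the cKO control, and both Aβ controls lay below every other control library. The AD model change was 0.56 ± 0.28 (interval -0.08 to 1.21, adjusted p = 0.23, limma); without AD model replicate 1 it was 1.01 with an adjusted p of 0.026 by limma.

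Abcg1 (ENSMUSG00000024030, chr17:31057698-31115777) encodes the transporter that moves cholesterol onto particles that already hold lipid. It was at 4.82 and 4.92 FPKM in the cKO control and 2.60 and 2.39 in the Ogt cKO. The AD control had 4.17 and 2.38 and the AD model 22.2 and 27.6. It was at 3.35 and 2.27 in the Aβ control and 31.0 and 32.2 after the peptide. The 4 AD model and Aβ treated libraries lay between 22.2 and 32.2 FPKM and the other 8 between 2.27 and 4.92. Abcg1 rose in the AD model (2.62 ± 0.21, adjusted p = 8.9e-05, limma), a 7.60-fold higher mean, and after the peptide (3.11 ± 0.21, adjusted p = 2.9e-05, limma), an 11.3-fold higher mean, and both rises passed the threshold under every alternative run. In the Ogt cKO it fell by less (-0.75 ± 0.21, adjusted p = 0.022, limma), and that fall missed the threshold when any 1 of the 4 libraries was left out (adjusted p 0.081 to 0.10) and with no filter (0.052).

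Lpl (ENSMUSG00000015568, chr8:68880491-68907448) encodes lipoprotein lipase, which releases fatty acids from lipoproteins. It was at 30.1 and 43.0 FPKM in the cKO control and 0.752 and 0.601 in the Ogt cKO. The AD control had 2.87 and 17.7 and the AD model 15.7 and 28.7. It was at 0.638 and 1.60 in the Aβ control and 30.6 and 13.4 after the peptide. Its range over group means, 54.0-fold, was the widest of the 9 tested genes, and the 2 AD controls differed 6.17-fold from each other. Lpl fell in the Ogt cKO (-4.46 ± 0.67, adjusted p = 0.0024, limma) and rose after the peptide (3.37 ± 0.67, adjusted p = 0.0050, limma), a 19.6-fold higher mean. The AD model change was 1.39 ± 0.67 (interval -0.13 to 2.91, adjusted p = 0.21, limma), and without AD control replicate 2 it was 2.53 with an adjusted p of 0.016 by limma.

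Lcat (ENSMUSG00000035237, chr8:105939551-105943382) encodes the enzyme that esterifies cholesterol on lipoproteins. It was at 18.9 and 18.1 FPKM in the cKO control and 4.78 and 4.88 in the Ogt cKO. Its AD control values were 11.8 and 21.4, and its AD model values 6.20 and 12.4. It was at 5.77 and 6.61 in the Aβ control and 12.9 and 6.42 after the peptide, so that both amyloid experiments had groups that overlapped. Lcat fell in the Ogt cKO (-1.74 ± 0.37, adjusted p = 0.0077, limma). It did not pass the test in the AD model (-0.79 ± 0.37, interval -1.63 to 0.05, adjusted p = 0.20, limma) or after the peptide (0.50 ± 0.37, interval -0.34 to 1.34, adjusted p = 0.31, limma).

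Lrp1 (ENSMUSG00000040249, chr10:127538161-127621148) encodes a large endocytic receptor for apolipoprotein E and many other ligands. It was at 107 and 109.5 FPKM in the cKO control and 93.9 and 84.8 in the Ogt cKO. Its AD control values were 93.9 and 79.4, and its AD model values 59.2 and 78.5. It was at 101 and 110.5 in the Aβ control and 53.9 and 50.6 after the peptide. Lrp1 had the narrowest range of the 9 tested genes, 2.07-fold between the highest and lowest group means, and was the only one of them that fell after the peptide (-1.0 ± 0.16, adjusted p = 0.0017, limma), to 2.02-fold lower. In the Ogt cKO it was -0.28 ± 0.16 (interval -0.64 to 0.08, adjusted p = 0.18, limma). That call depends on scaling: with the values rescaled to total reads it was -0.52 (adjusted p = 0.020), after quantile normalization -0.68 (0.0094), and with the 4 libraries fitted alone the adjusted p was 0.030. The 4 AD model and Aβ treated libraries were its 4 lowest, but by a narrow margin (78.5 against 79.4). In the AD model it was -0.34 ± 0.16 (interval -0.70 to 0.02, adjusted p = 0.20, limma), and -0.54 with an adjusted p of 0.047 without AD model replicate 2.

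Vldlr (ENSMUSG00000024924, chr19:27216484-27254231) encodes the very low density lipoprotein receptor, which also binds reelin. It was low throughout, at 0.970 and 0.905 FPKM in the cKO control and 1.19 and 1.03 in the Ogt cKO. The AD control had 2.50 and 2.00 and the AD model 2.26 and 2.61. It was at 1.40 and 1.19 in the Aβ control and 2.83 and 2.90 after the peptide. Vldlr rose after the peptide (0.75 ± 0.13, adjusted p = 0.0028, limma), a 2.21-fold higher mean; the log2 value is smaller than the fold because 1 is added to a low FPKM. It was 0.12 ± 0.13 in the Ogt cKO (interval -0.18 to 0.42, adjusted p = 0.47, limma) and 0.08 ± 0.13 in the AD model (interval -0.22 to 0.39, adjusted p = 0.73, limma).

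Counted over the 9 tested genes, 0 rose and 7 fell in the Ogt cKO (Apoe, Apod, Clu, Abca1, Abcg1, Lpl and Lcat), beside 22.6% and 19.8% of all genes. In the AD model 2 rose (Apod and Abcg1) and 0 fell, beside 9.8% and 7.27%. After the peptide 6 rose (Apod, Clu, Abca1, Abcg1, Lpl and Vldlr) and 1 fell (Lrp1), beside 20.8% and 15.1%. The median log2 change of the 9 was -2.49, 0.08 and 1.30 in the 3 experiments, and that of all tested genes was -0.0024, -0.024 and -0.037. The genes were chosen with results of these data known, so these counts describe them and do not test them as a set.

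**Figure D2:**
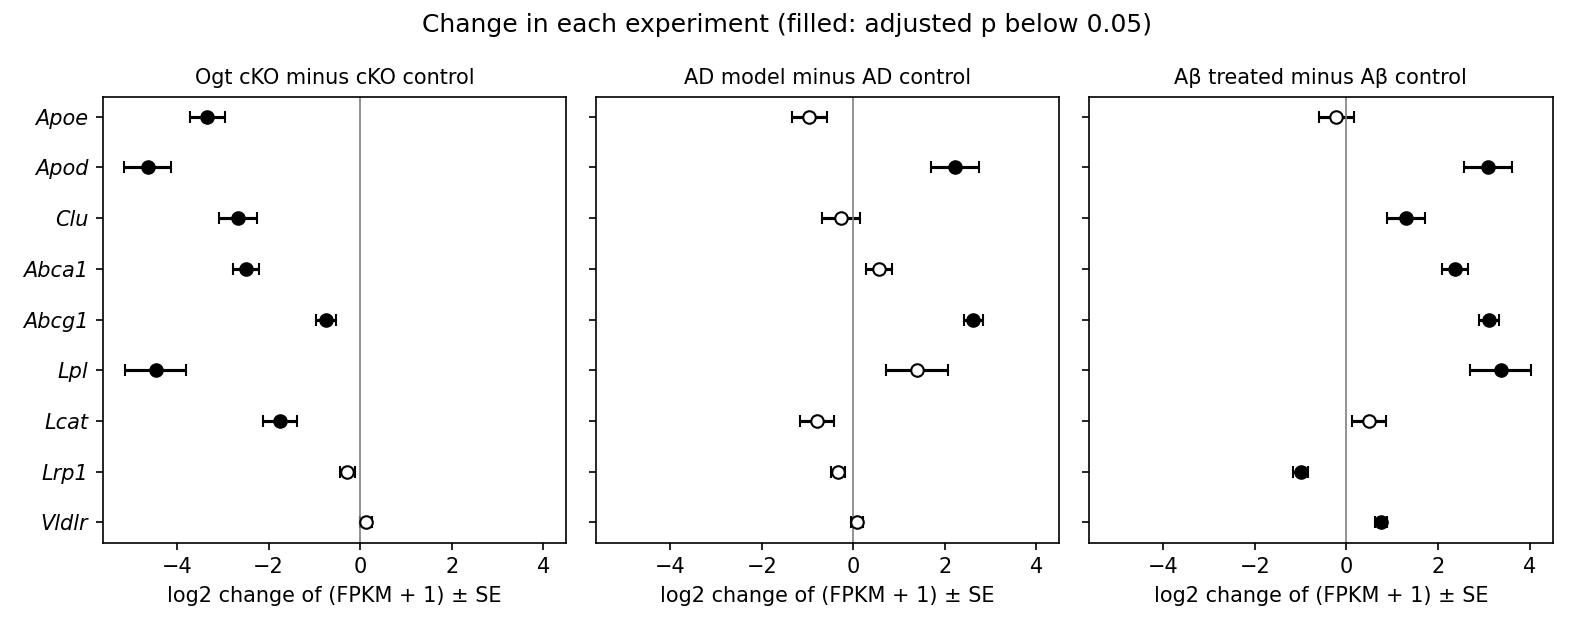
Log2 change of FPKM + 1 (horizontal axes) with its standard error for the 9 tested genes in the 3 experiments, 2 libraries against 2 in each; filled points passed an adjusted p of 0.05. Apoe is below 0 in the Ogt cKO (-3.34) and near 0 after the peptide (-0.22), while Abcg1 is at 2.62 and 3.11 in the amyloid experiments.

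Differences between the effects of the 3 experiments were tested as contrasts of the same fit. The AD effect exceeded the cKO effect for 6 of the 9 genes, Apoe (2.37 ± 0.54, adjusted p = 0.016, limma), Apod, Clu, Abca1, Abcg1 and Lpl, with 25.6% of all genes called in either direction. The Apoe difference missed the threshold under 3 of 19 alternatives, with no filter (adjusted p = 0.054), without cKO control replicate 1 (0.052) and without Ogt cKO replicate 2 (0.058), and that of Clu under 6 of 19 (0.055 to 0.077), among them leaving out cKO control replicate 2, either Ogt cKO library or AD control replicate 1. For Lcat, Lrp1 and Vldlr that difference did not pass. The Aβ effect differed from the cKO effect for all 9, with 52.3% of all genes called; it was higher for 8 and lower for Lrp1 (-0.72 ± 0.22, adjusted p = 0.025, limma). The Lrp1 difference missed the threshold under 9 of 19 alternatives and that of Vldlr under 8 of 18. Between the 2 amyloid experiments the difference passed for Abca1 alone of the 9 (AD minus Aβ effect -1.81 ± 0.40, adjusted p = 0.034, limma), where 6.14% of all genes were called. That call was lost under 7 of 19 alternatives, among them leaving out AD control replicate 2 (adjusted p = 0.090), Aβ control replicate 1 (0.13), Aβ treated replicate 1 (0.12) or Aβ treated replicate 2 (0.084). Clu (-1.58 ± 0.59, interval -2.92 to -0.23, adjusted p = 0.15, limma) passed with the replicate number as a block (0.020), without AD control replicate 1 (0.046) and without AD model replicate 2 (0.042). Lpl passed without AD control replicate 1 (0.028), Lrp1 without AD model replicate 1 (0.036) and Vldlr by voom on the recovered reads (0.026). For Apod the difference of the amyloid effects was -0.88 ± 0.74 (interval -2.55 to 0.79) and for Abcg1 -0.49 ± 0.30 (interval -1.17 to 0.20).

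The 3 control groups, all labelled untreated, differed from one another in these genes, with log2 differences as large as -4.53. They differ in experiment, age and, for the cKO control, genotype at once, and these cannot be told apart. The Aβ control was lower than the cKO control in 7 of the 9 genes, with 23.1% of all genes called lower and 22.6% higher. In that comparison Apod was 25.9-fold lower (log2 difference -4.53 ± 0.52, adjusted p = 0.0014, limma), Lpl 32.6-fold lower (-4.16 ± 0.67, adjusted p = 0.0032, limma), Apoe 7.77-fold lower (-2.98 ± 0.38, adjusted p = 0.0017, limma) and Abca1 7.96-fold lower (-2.73 ± 0.28, adjusted p = 0.0011, limma). Clu (-2.33), Lcat (-1.44) and Abcg1 (-0.64) were lower too, whereas Lrp1 (-0.04 ± 0.16, interval -0.40 to 0.32, adjusted p = 0.86, limma) and Vldlr (0.24 ± 0.13, interval -0.06 to 0.54, adjusted p = 0.16, limma) did not pass. After quantile normalization Lrp1 was -0.48 with an adjusted p of 0.030 by limma. The call was lost for Abcg1 when any 1 of the 4 libraries was left out (adjusted p 0.051 to 0.20), with no filter (0.080) and after quantile normalization (0.0996), and for Lcat without either cKO control or without Aβ control replicate 1 (0.063 to 0.081). The same 7 genes fell in the Ogt cKO, a comparison that shares the cKO control libraries, so the 2 sets of differences are not independent. Side by side, the mean FPKM of the Ogt cKO and the Aβ control were 445 and 579 for Apoe, 8.40 and 9.30 for Apod, 24.6 and 31.3 for Clu, 5.24 and 4.31 for Abca1 and 0.677 and 1.12 for Lpl.

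By its mean the AD control lay between the other 2 controls in Apoe, Apod, Clu, Abca1, Abcg1, Lpl and Lcat. Against the cKO control, Apoe was lower (-2.01 ± 0.38, adjusted p = 0.016, limma), Apod was lower (-2.42 ± 0.52, adjusted p = 0.026, limma) and Vldlr was higher (0.74 ± 0.13, adjusted p = 0.014, limma), with 3.49% of all genes called lower and 4.49% higher. All 3 calls were lost when AD control replicate 1 or either cKO control was left out (adjusted p 0.060 to 0.18) and when the 4 libraries were fitted alone (0.15 to 0.24); those of Apoe and Apod were also lost with no filter (0.063 and 0.075), and that of Apoe after quantile normalization (0.081). Against the AD control, the Aβ control was lower in Apod (-2.12), Clu (-2.11), Abca1 (-2.38), Lpl (-2.04), Lcat (-1.24) and Vldlr (-0.50), 6 of the 9 genes, with 16.7% of all genes called lower and 15.5% higher. Of these, Clu (adjusted p = 0.0070, limma) and Abca1 (0.00071) passed under every alternative, and the calls of Apod, Lpl, Lcat and Vldlr were lost without either Aβ control (0.061 to 0.23) and with the 4 libraries fitted alone (0.079 to 0.16). Leaving out AD control replicate 2 also ended the calls of Apod (0.096), Lpl (0.26) and Lcat (0.19), and leaving out replicate 1 that of Vldlr (0.071). Of the results that did not pass, Lpl between the AD and cKO controls (-2.12 ± 0.67, interval -3.64 to -0.60, adjusted p = 0.092, limma) passed without AD control replicate 2 (-3.26, 0.0083), and Apoe between the Aβ and AD controls (-0.97 ± 0.38, interval -1.84 to -0.11, adjusted p = 0.081, limma) passed without AD control replicate 1 (-1.54, 0.0093). In the AD groups the library labelled replicate 2 was above replicate 1 for Apoe, Apod, Clu, Abca1, Lpl and Lcat, 2.19-fold for Apoe and 2.90-fold for Apod among the controls.

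**Figure D3:**
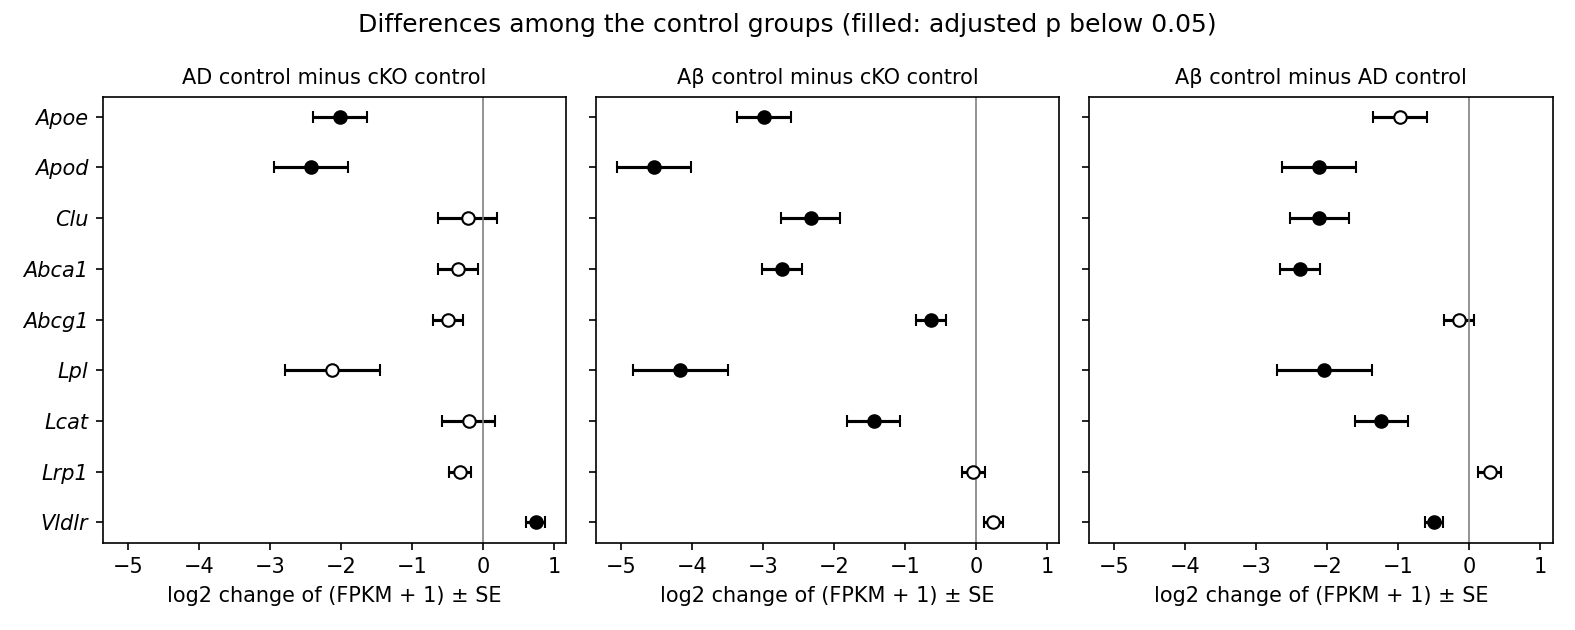
Log2 difference of FPKM + 1 (horizontal axes) with its standard error between the 3 control groups for the 9 tested genes; filled points passed an adjusted p of 0.05. Apod differs by -4.53 and Lpl by -4.16 between the Aβ and cKO controls, while Lrp1 is at -0.04.

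Markers of several cell types moved with these comparisons. Of all genes, 22.6% were called higher and 19.8% lower in the Ogt cKO. These shares were 9.8% and 7.27% in the AD model, and 20.8% and 15.1% after the peptide. Shares for the controls are given above, and a count near its share is no result about the list. The summed FPKM of 20 astrocyte markers was 988 to 1194 in the cKO control and 255 to 280 in the Ogt cKO, and 0 of 19 tested markers rose and 13 fell. The 20 microglia and macrophage markers summed to 8175 to 10197 in the cKO control and 3505 to 4679 in the Ogt cKO (0 rose, 9 of 20 fell), and the 11 pericyte and smooth muscle markers to 579 to 1120 and 4144 to 4185 (4 of 9 rose, 0 fell). Microglia and macrophages are known to express Apoe, Abca1, Abcg1, Lpl and Lrp1 as well. In the AD model the microglia and macrophage sum was 4343 to 7480 against 1326 to 1976 in its control (15 of 20 rose, 0 fell), and the astrocyte sum 480 to 507 against 838 to 1062 (0 of 19 rose, 8 fell). The pericyte and smooth muscle sum there was 266 to 885 against 1917 to 4072 (0 of 9 rose, 6 fell). After the peptide the microglia and macrophage sum was 5927 to 7851 against 2616 to 4319 (11 rose, 2 fell), the astrocyte sum 236 to 410 against 285 to 289.7 (3 of 19 rose, 4 fell), and the pericyte and smooth muscle sum 571 to 591 against 3721 to 4267 (0 of 9 rose, 6 fell). Oligodendrocyte lineage genes, another known site of Apod, summed to 208 to 406 in the cKO control, 67.3 to 69.9 in the Ogt cKO, 271 to 305 and 438 to 513 in the AD control and model, and 61.2 to 79.2 and 200.5 to 363 in the Aβ control and treated cells. Of 14 such markers 7 fell and 1 rose in the Ogt cKO, 8 rose and 4 fell in the AD model, and 10 rose and 1 fell after the peptide. Among the controls, the Aβ control had 12 of 19 astrocyte markers and 13 of 20 microglia and macrophage markers lower than the cKO control and 0 higher of either. In the same comparison 7 of 14 oligodendrocyte lineage markers were lower and 1 higher, and 9 of 14 endothelial markers were higher and 1 lower. Against the AD control, the Aβ control had 14 of 19 astrocyte and 10 of 14 oligodendrocyte lineage markers lower and 0 higher of either, and 3 of 20 microglia and macrophage markers higher and 0 lower. The AD control had 13 of 20 microglia and macrophage markers lower than the cKO control and 0 higher, with 1 of 19 astrocyte markers lower and 2 higher. Of 14 oligodendrocyte lineage markers, 5 were higher and 2 lower in that comparison, in which Apod was lower (-2.42). The part of these markers in the changes of the lipid genes was not tested.

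**Figure D4:**
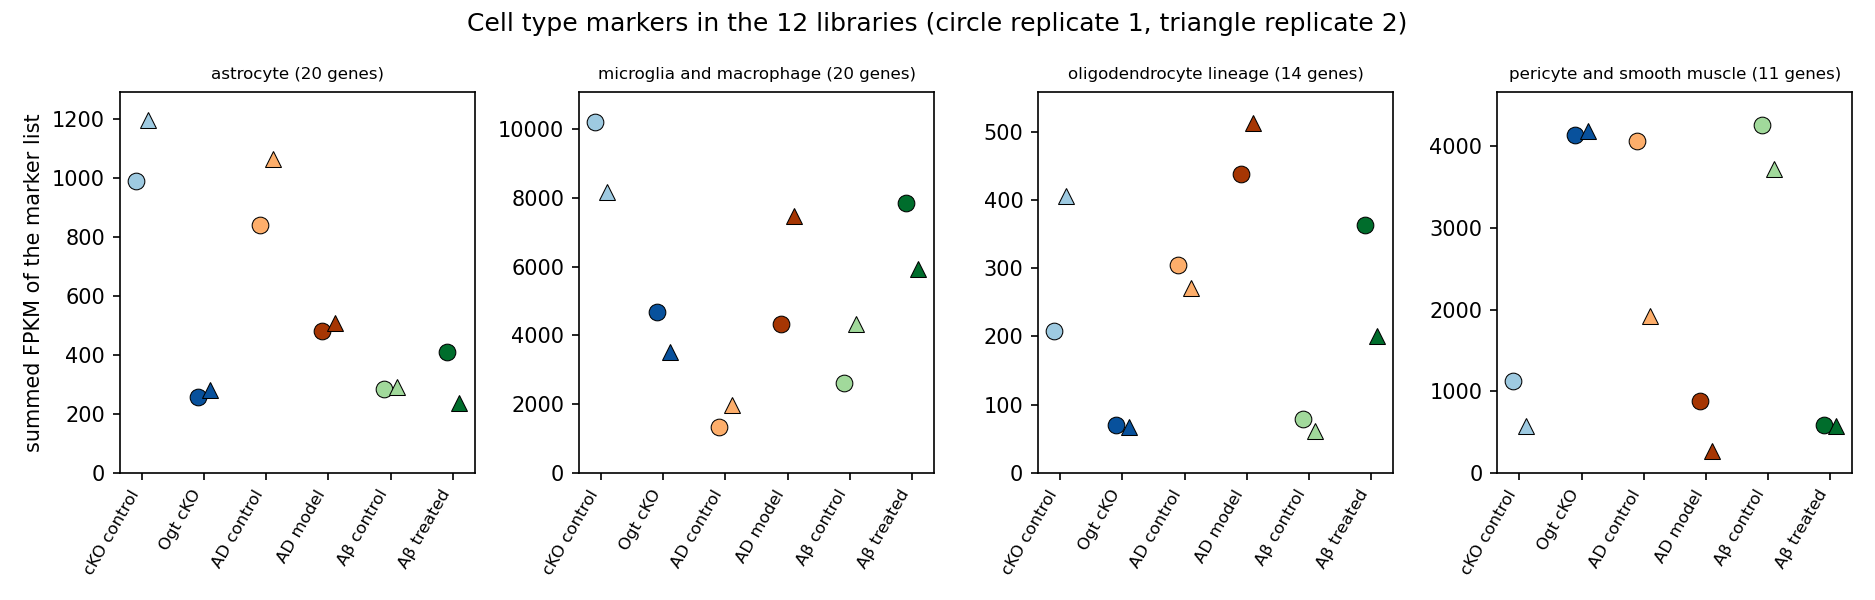
Summed FPKM (vertical axes, linear, from 0) of 4 marker lists in the 12 libraries; circles are replicate 1 and triangles replicate 2. The microglia and macrophage sum is 8175 to 10197 in the cKO control and 1326 to 1976 in the AD control, and the pericyte and smooth muscle sum is 3721 to 4267 in the Aβ control and 571 to 591 after the peptide.

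Other genes of lipoprotein biology were read from 7 lists, and the members named are those with the smallest p over the 3 experiments. Their calls were not checked under the alternatives. The counts stand beside 22.6% of all genes called higher and 19.8% lower in the Ogt cKO. Those shares were 9.8% and 7.27% in the AD model and 20.8% and 15.1% after the peptide. A count near its share is no result about the list. Among the LXR and partner receptors (11 of 13 tested), 0 rose and 4 fell in the Ogt cKO, 1 rose and 2 fell in the AD model, and 4 rose and 2 fell after the peptide. Nr1h3, which encodes LXR alpha, was at 2.51 and 2.37 FPKM in the cKO control and 1.79 and 1.88 in the Ogt cKO, where it did not pass the test (-0.28 ± 0.17, adjusted p = 0.20, limma). It rose in the AD model, from 2.55 and 2.15 to 8.12 and 6.40 (1.30 ± 0.17, adjusted p = 0.0011, limma), and after the peptide, from 2.19 and 2.17 to 11.7 and 8.48 (1.79 ± 0.17, adjusted p = 0.00011, limma). Its partner Rxra fell in the Ogt cKO, from 34.3 in both libraries to 15.4 and 12.8 (-1.23 ± 0.18, adjusted p = 0.0022, limma). Its means in the AD control, AD model, Aβ control and Aβ treated groups were 17.8, 14.6, 17.2 and 21.2 FPKM, so the cKO control was the single high group. The corepressor Ncor1 and the coactivator Ncoa1 both fell in the Ogt cKO (-0.85 and -1.51) and rose after the peptide (1.16 and 0.85). For Ncor1 the means of the cKO, AD and Aβ controls were 8.36, 11.2 and 3.33 FPKM. Its Ogt cKO libraries were at 4.02 and 4.38, and its Aβ treated mean was 8.63. For Ncoa1 those control means were 4.37, 3.57 and 0.939, with 0.881 in the Ogt cKO and 2.48 after the peptide. The untreated Aβ control was thus below the Ogt cKO in Ncor1 and near it in Ncoa1.

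The genes called in the sterol regulatory system, which holds the SREBP factors and enzymes of cholesterol synthesis (17 of 18 tested), had the opposite direction to Abcg1 in each experiment. Of these 17, 8 rose and 0 fell in the Ogt cKO, 0 rose and 8 fell in the AD model, and 0 rose and 13 fell after the peptide, with median log2 changes of 0.42, -0.62 and -1.0. The controls differed too: in the Aβ control 8 were higher and 1 lower than in the cKO control, and 8 higher and 1 lower than in the AD control. Between the AD and cKO controls 0 were higher and 1 lower. Cyp51, which encodes a demethylase of cholesterol synthesis, was at 15.8 and 14.2 FPKM in the cKO control and 32.4 and 30.4 in the Ogt cKO (1.02 ± 0.23, adjusted p = 0.0089, limma). It fell in the AD model, from 25.6 and 17.0 to 8.83 and 7.34 (-1.27 ± 0.23, adjusted p = 0.0054, limma), and after the peptide, from 33.0 and 36.5 to 7.64 and 4.79 (-2.34 ± 0.23, adjusted p = 0.00014, limma). The Aβ control level of Cyp51 was thus near that of the Ogt cKO. Mvk, mevalonate kinase, followed the same order (0.68, -0.82 and -1.62, all past the threshold). Sqle and Srebf2 fell in the AD model (-0.99 and -0.62) and after the peptide (-1.46 and -0.88), and neither passed in the Ogt cKO (0.05 and 0.14).

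Of the lipoprotein receptors and adaptors (21 of 22 tested), 4 rose and 8 fell in the Ogt cKO, 5 rose and 1 fell in the AD model, and 6 rose and 3 fell after the peptide. Trem2, a lipid and apolipoprotein receptor of microglia, fell in the Ogt cKO from 65.1 and 66.2 to 6.75 and 3.97 FPKM (-3.42 ± 0.39, adjusted p = 0.0011, limma). Its mean was also low in the AD control (10.3) and the Aβ control (11.8). Trem2 rose in the AD model (1.33, adjusted p = 0.047, limma) and after the peptide (1.67). The scavenger receptor genes Msr1 and Cd36 rose in the AD model (2.53 and 4.16) and after the peptide (3.11 and 4.32) and did not pass in the Ogt cKO (0.57 and 1.05). Sorl1, a sorting receptor for lipoproteins and the amyloid precursor, fell in the Ogt cKO (-2.89) and in the AD model (-1.0, adjusted p = 0.045, limma). Its mean was 1.34 FPKM in the Ogt cKO and 1.92 in the Aβ control, against 16.4 and 12.3 in the cKO and AD controls. Trem2, Msr1 and Cd36 are known macrophage genes, and 15 and 11 of the 20 microglia and macrophage markers rose in the AD model and after the peptide; their part was not tested.

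Of the lipases and remodelling genes (13 of 18 tested), 3 rose and 4 fell in the Ogt cKO, 3 rose and 1 fell in the AD model, and 6 rose and 0 fell after the peptide. Pla2g7, which encodes the lipoprotein-associated phospholipase of macrophages, rose from 3.17 and 2.75 to 68.8 and 58.6 FPKM in the AD model (4.03 ± 0.24, adjusted p = 1.4e-05, limma) and from 2.34 and 1.82 to 82.3 and 59.3 after the peptide (4.53 ± 0.24, adjusted p = 7.1e-06, limma). Angptl4, an inhibitor of lipoprotein lipase, rose in all 3 experiments (3.32, 2.11 and 2.48). In the Ogt cKO it rose where Lpl fell, and a link between the 2 was not tested. Of the controls, that of the cKO was the lowest for Angptl4, with a mean of 4.85 FPKM against 15.2 in the AD control and 29.3 in the Aβ control. The Ogt cKO mean was 57.4. Lipa, the lysosomal lipase that frees cholesterol, fell in the Ogt cKO (-2.23) and rose in the AD model (1.49) and after the peptide (1.22). Its mean was 158 FPKM in the cKO control, 38.4 in the AD control and 39.6 in the Aβ control. Pltp, a phospholipid transfer protein, fell in the Ogt cKO (-0.97) and rose after the peptide (0.52). For Pltp the means of the cKO, AD and Aβ controls were 28.4, 20.6 and 16.3 FPKM, and that of the Ogt cKO was 14.0.

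Of the other ABC lipid transporters (13 of 16 tested), 4 rose and 7 fell in the Ogt cKO, 3 rose and 1 fell in the AD model, and 6 rose and 0 fell after the peptide. Abca9 fell in the Ogt cKO (-2.58) and rose after the peptide (1.02), as Abca1 did. The mean of Abca9 was 6.87 FPKM in the cKO control, 0.803 in the AD control and 0.437 in the Aβ control. Abcb1b, a drug and lipid pump, rose in all 3 (1.67, 1.03 and 0.71), and Abcc1 rose in the Ogt cKO (0.92) and the AD model (0.97).

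Of the sterol handling and storage genes (24 of 29 tested), 7 rose and 5 fell in the Ogt cKO, 10 rose and 0 fell in the AD model, and 8 rose and 2 fell after the peptide. Plin2, a lipid droplet coat gene, rose in the Ogt cKO from 49.4 and 39.3 to 210.1 and 183 FPKM (2.13 ± 0.28, adjusted p = 0.0016, limma) and in the AD model (1.36). Its mean was as high in the Aβ control (217), and 80.1 in the AD control. Cyp7b1, an oxysterol hydroxylase, rose in all 3 (0.84, 1.15 and 0.46). Cyp27a1, which makes 27-hydroxycholesterol, fell in the Ogt cKO (-1.73), and Stard5, a sterol carrier, rose in the AD model (1.31) and after the peptide (1.04). The mean of Cyp27a1 was 4.53 FPKM in the cKO control, 0.661 in the AD control and 1.65 in the Aβ control. Among the other apolipoproteins, 7 of 21 were tested, and 2 rose in the Ogt cKO, 3 in the AD model and 3 after the peptide, with 0 falling. Saa3, an acute phase apolipoprotein, rose in all 3 (4.83, 4.95 and 3.41). Its AD libraries were far apart, at 0.0465 and 0.957 FPKM in the control and 15 and 121 in the model. Apol9a (2.52 and 3.37) and Apol9b (3.56 and 3.83), which are interferon-inducible, rose in the 2 amyloid experiments. Apoa2 rose in the Ogt cKO (1.25), from a mean of 1.54 to 4.80 FPKM. Its mean was 2.59 in the AD control and 5.91 in the Aβ control, above that of the Ogt cKO.

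**Figure D5:**
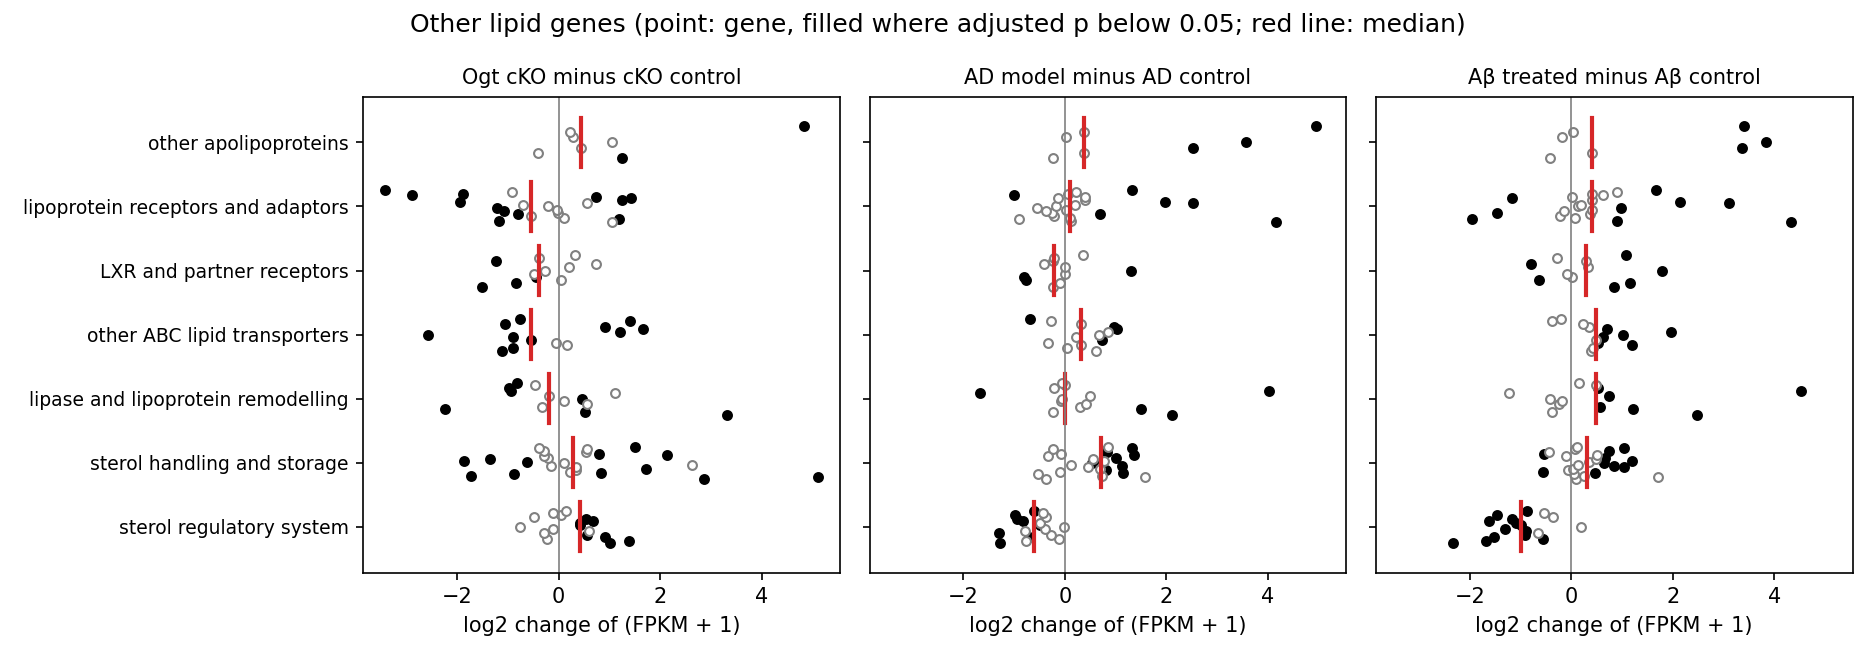
Log2 change of FPKM + 1 (horizontal axes) of each tested gene of the 7 lists in the 3 experiments; filled points passed an adjusted p of 0.05 and red lines are list medians. The sterol regulatory system has medians of 0.42 in the Ogt cKO, -0.62 in the AD model and -1.0 after the peptide.

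The genes whose levels most resembled those of Apoe over the 12 libraries, among 7665 genes with a mean of at least 5 FPKM, were Pcca (Pearson r = 0.968), Sesn1 (0.967), Ildr2 (0.966), Eif4ebp2 (0.959), Elovl5 (0.956) and Fut11 (0.955). Their group means, such as 24.9 FPKM of Sesn1 in the cKO control against 3.78 to 8.82 in the other groups, have the same single high group. Those most like Abca1 were Kat2b (0.983), Klhl24 (0.982), Etnk1 (0.978), Eps15 (0.977), Kif3a (0.973) and Cpne3 (0.970), which were low in the Ogt cKO and the Aβ control. Of the 10 genes, Apod (0.936), Clu (0.927) and Lpl (0.924) were closest to Abca1, and Apoe (0.463), Abcg1 (0.606) and Lrp1 (-0.37) were less like it. These are descriptions over libraries that share groups and replicates, with no test.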

How the data were processed

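Total RNA of astrocytes cultured from cortex and hippocampus was taken with TRIzol and sequenced by standard Illumina protocols, per the labels; no cell sorting is described. The authors deposited FPKM per gene for 12 libraries, and the submitters' processing notes name mm10. Not given in the sources used here are the aligner, counting tool, annotation release and the handling of strand and of reads with several matches. Multiplying FPKM by gene length recovered whole reads (100% of values, tolerance 0.1 read); their totals were 0.886 to 1.10 of the library size that the deposited FPKM imply. Reads without molecular identifiers are not independent molecules, so floors cover counting error only.

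Groups came from the sample descriptions. limma 3.58.1 (R 4.3.3) was fitted to log2(FPKM + 1) with an intensity trend, 1 mean per group and all 12 libraries sharing the spread (6 residual and 2.92 prior degrees of freedom), two-sided, with adjustment over 14014 genes. A change on this scale understates that of low genes. The script was tested on simulated data. Alternatives were other pseudocounts (0.1, 0.5), filters (none, 5 FPKM), scalings, voom on the recovered reads, robust variance, the replicate block, only the groups compared, and each library left out. The genes, gene lists and motifs were chosen with earlier results of these data known. Named beside the 10 genes are Ogt, up to 4 genes per list by smallest p, the 6 genes most correlated with Apoe and with Abca1, and the most abundant gene of marker lists; the other markers were named after their values were seen. 1 gene that this rule names is not reported here. Marker lists covered astrocytes, microglia and macrophages, the oligodendrocyte lineage, endothelium, pericytes and smooth muscle, fibroblasts, neurons and ependyma. Promoters came from RefSeq on GRCm38.p6. Figures were drawn with matplotlib 3.10.9 in Python 3.11.15.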

Additional observations from a re-analysis of the deposited data

How the results depend on the processing

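Of 49 results of single genes past the threshold, Ogt included, 31 kept direction and call under every alternative, 18 missed the threshold under at least 1, and 0 changed sign; of 33 that had not passed, 11 changed sign and 12 passed under at least 1. The median-of-ratios scaling gave the same values as the deposited FPKM. Rescaling to total reads moved the median of all genes to -0.19 in the Ogt cKO and -0.20 between the Aβ and cKO controls. The number of the 9 genes called in the AD model (2) was 1 with no filter and 1 with only the groups compared, where 278 genes of the table were called in place of 2392. Between the AD and cKO controls it (3) was 1 with no filter and 0 with only the groups compared, with 682 and 0 genes of the table in place of 1118 (limma). Between the Aβ and AD controls it (6) was 3 with no filter, 3 after quantile normalization and 2 with only the groups compared, with 1032 genes of the table in place of 4507. For the difference between the amyloid effects it (1) was 0 with no filter, 0 after quantile normalization, 2 by voom and 0 with only the groups compared. Fitting only the groups compared leaves fewer libraries to estimate the spread, yet calls over the table rose where no AD group was compared. They were 8704 in place of 5934 in the Ogt cKO and 5814 in place of 5025 after the peptide. Between the Aβ and cKO controls they were 7673 in place of 6404. The AD libraries correlated least within their groups (0.948 and 0.944), and the main fit gives them the spread shared by all 12 libraries. The cause was not tested.

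Leaving out 1 library in turn gave 1857 to 3213 genes of the table in the Ogt cKO (5934 with all), 2674 to 4033 after the peptide (5025), 242 to 2814 between the AD and cKO controls, 2489 to 4831 between the Aβ and cKO controls (6404) and 1525 to 5490 between the Aβ and AD controls. The number of the 9 genes called ranged from 0 to 4 between the AD and cKO controls, from 2 to 6 between the Aβ and AD controls and from 0 to 3 for the difference between the amyloid effects. Where an arm kept 1 library, it was assumed to vary like the other groups.

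Changes of sign were all of results that had not passed. Vldlr in the Ogt cKO was -0.0014 and Vldlr in the AD minus cKO effect 0.11 after rescaling to total reads. Lrp1 in the AD minus cKO effect was 0.21 after rescaling, 0.31 after quantile normalization and 0.0055 by voom. After quantile normalization, Vldlr in the AD model was -0.0032, Apoe after the peptide 0.13, and Abcg1 and Lrp1 between the Aβ and AD controls 0.012 and -0.078. With 1 library left out, the ranges that crossed 0 were -0.91 to 0.36 for Clu and -0.027 to 0.20 for Vldlr in the AD model, -0.51 to 0.070 for Apoe after the peptide, -0.76 to 0.32 for Clu and -0.60 to 0.20 for Lcat between the AD and cKO controls, -0.10 to 0.028 for Lrp1 between the Aβ and cKO controls, -0.46 to 0.16 for Abcg1 between the Aβ and AD controls, and -0.26 to 0.14 for Lrp1 and -0.15 to 0.073 for Vldlr in the AD minus cKO effect.

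Same-numbered libraries deviated together in the AD experiment (r = 0.55), not in the cKO (0.033), and against each other in the Aβ experiment (-0.17). In the cKO and Aβ experiments no shared deviation was seen, which cannot tell whether same-numbered samples were paired by animal or culture. In the AD experiment the numbers may pair the samples, which the labels do not state, and there the block fit stands beside the main fit. With the replicate block the calls among the 9 genes were 7, 3 and 7 in the Ogt cKO, AD and Aβ comparisons, and 2 for the difference between the amyloid effects; over the table they were 6789, 3058 and 6098. Apoe passed in the AD model under the block (-0.96, adjusted p = 0.016, limma). A crossed replicate block for the Aβ experiment, chosen after seeing the data, gave 7 of the 9 genes and 6708 of the table.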

Other observations

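The remaining marker lists also differed between groups. Their counts stand beside the shares of all genes given with the other markers. The 14 endothelial markers summed to 53.0 to 62.8 FPKM in the cKO control and 292 to 301 in the Ogt cKO, where 9 rose and 1 fell (limma), and to 291 to 365 in the Aβ control and 948 to 1324 after the peptide, where 10 rose. In the AD control and model their sums were 104 to 246 and 135 to 547, which overlapped. The 15 fibroblast and meningeal markers, 11 of them tested, summed to 1265 to 1388 in the cKO control and 2066 to 2067 in the Ogt cKO (1 rose, 3 fell), 1546 to 2693 and 633 to 1246 in the AD control and model (7 fell), and 1656 to 1769 and 907 to 1333 in the Aβ control and treated cells (1 rose, 4 fell). The 10 neuronal markers, with Tubb3 the most abundant at 40.6 to 177 FPKM, had 5 tested and summed to 48.7 to 190.4. The 7 ependymal markers had 3 tested and summed to 3.82 to 13.5.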
